A study of Mus musculus with 8 samples.

Results

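The 10 genes for microglia and complement were listed by symbol and not by measured values, with earlier results of these data known. Of the 10, 6 had a probe that named exactly 1 gene on a mouse array of 33012 probes. These were C1qa, C1qb, C1qc, Aif1, Ctss and B2m. No probe used here named Cx3cr1, Csf1r, Tyrobp or Cd68 alone, so these 4 genes have no value. In all, 13840 genes had such a probe. The hypothalamus RNA was that of inbred male C57BL/6J mice sorted by how much weight they gained, with no further allele given. High gainers and low gainers had the same diets. These were 6 weeks of a high-fat diet begun at 8 weeks of age, then 2 weeks of a low-fat diet and again 6 weeks of the high-fat diet. In the paper's protocol with these spans, the low-fat diet was restricted to less than each mouse had eaten earlier. Every group was 1 pool from 20 mice, and 4 arrays were run on either pool. They are technical replicates, so the p-values and intervals below measure the spread between arrays and not that between mice. Both groups ate the high-fat diet, and a group that never did was not analysed here.

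Microglia are the resident macrophages of the brain. They depend on signalling through the receptor Csf1r, sense neuronal fractalkine through Cx3cr1, and pass signals of Trem2 and related receptors on through the adaptor Tyrobp. In the healthy brain they are the main source of C1q, which starts the classical complement pathway and is built from an A, a B and a C chain. Feeding rodents a high-fat diet is known to provoke gliosis of the mediobasal hypothalamus, in which microglia and astrocytes become more numerous or larger. The comparison asks whether such transcripts differed in hypothalamus between mice that gained much weight and mice that gained little. In pooled tissue, fewer cells of a type and less RNA per cell cannot be told apart.

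C1qa, C1qb and C1qc lie next to each other on mouse chromosome 4. The 250 bases before the start site were taken from RefSeq for 7 of the 10 genes. Not every chromosome was searched for these genes, while the shares over all windows below left none out. They are shown for both C1q genes found there and for Ctss and B2m, which are 4 of the 5 genes compared on all 7 arrays below. Capitals mark GAGGAA, the core of the site of PU.1, the transcription factor that defines macrophages, and the GAAA pair with 2 bases between, the paired half-sites of interferon regulatory factors, each on either strand.
C1qb (GRCm38.p6, chr4:136886201-136886450, minus strand): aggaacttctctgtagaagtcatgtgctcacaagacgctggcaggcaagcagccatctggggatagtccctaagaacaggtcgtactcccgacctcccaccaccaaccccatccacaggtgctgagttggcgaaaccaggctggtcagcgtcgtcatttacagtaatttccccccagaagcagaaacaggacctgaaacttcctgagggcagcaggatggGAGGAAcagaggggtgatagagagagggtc
C1qc (GRCm38.p6, chr4:136892915-136893164, minus strand): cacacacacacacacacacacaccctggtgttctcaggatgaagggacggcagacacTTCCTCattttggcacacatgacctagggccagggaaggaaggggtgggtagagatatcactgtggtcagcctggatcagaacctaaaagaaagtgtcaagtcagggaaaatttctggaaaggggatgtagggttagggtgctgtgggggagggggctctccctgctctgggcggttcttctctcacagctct
Ctss (GRCm38.p6, chr3:95526536-95526785, plus strand): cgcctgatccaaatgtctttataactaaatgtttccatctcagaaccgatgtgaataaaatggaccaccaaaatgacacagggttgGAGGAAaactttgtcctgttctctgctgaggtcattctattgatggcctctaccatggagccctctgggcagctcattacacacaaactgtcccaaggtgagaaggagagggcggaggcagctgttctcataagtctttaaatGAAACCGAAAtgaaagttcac
B2m (GRCm38.p6, chr2:122147437-122147686, plus strand): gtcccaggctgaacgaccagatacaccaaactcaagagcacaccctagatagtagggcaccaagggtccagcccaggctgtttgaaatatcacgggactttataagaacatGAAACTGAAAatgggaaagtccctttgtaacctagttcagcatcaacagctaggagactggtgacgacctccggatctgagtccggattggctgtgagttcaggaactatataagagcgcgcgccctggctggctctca
The GAGGAA core stood in the windows of 5 of the 7 genes and in 23.3% of 32851 windows of the same length. In C1qb it lay at bases -30 to -25 from the start site, in C1qc at -193 to -188 on the opposite strand, and in Ctss at -164 to -159. The GAAA pair stood in the windows of 3 of the 7 genes (Aif1, Ctss and B2m) and in 2.98% of all windows. In Ctss it lay at -21 to -12 and in B2m at -139 to -130. The motifs did not overlap in these windows. A match is a description of the letters only.

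Low gainer array 2 is given apart, and whether its values belong to the probes and the pool they are listed under is not known. Across probes, its log2 intensity correlated with the other 7 arrays at an r of 0.227 to 0.241, while these correlated with each other at 0.941 to 0.987. The glycolytic gene Gapdh, often taken as a reference, read 1.00 on it and 84.9 to 117.0 elsewhere. The other 7 arrays had a value for 13657 to 16873 probes each, and 11169 probes had a value on all 7 of them. The study's normalized intensities are on a linear scale of arbitrary units.

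The 3 chains of C1q did not differ between the pools beyond the spread between arrays. C1qa, the A chain, had an intensity of 9.58, 7.10, 6.45 and 7.87 on high gainer arrays 1 to 4. On low gainer arrays 1, 3 and 4 it was 7.13, 6.79 and 5.86. High gainer array 1 was highest and low gainer array 4 lowest, and the pools overlapped. By limma the log2 difference of C1qa, high minus low gainers, was 0.24 ± 0.18 (SE), with a 95% interval from -0.13 to 0.62 and an adjusted p of 0.851 among 11169 probes.

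C1qb, the B chain, had an intensity of 1.59, 1.67, 1.59 and 1.88 on the high gainer arrays and of 1.65, 1.37 and 1.90 on low gainer arrays 1, 3 and 4. The highest and the lowest value of C1qb were both from the low gainer pool. Its log2 difference by limma was 0.03 ± 0.19 (SE), with an interval from -0.37 to 0.43 and an adjusted p of 0.990. C1qc, the C chain, had an intensity of 4.44, 3.55, 4.76 and 4.72 on the high gainer arrays and of 5.47, 4.11 and 3.39 on the low gainer arrays. Again the low gainer pool held both ends of the range. The log2 difference of C1qc was 0.04 ± 0.20 (SE) by limma, with an interval from -0.39 to 0.46 and an adjusted p of 0.985.

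The chains did not share an order of arrays. After quantile normalization, low gainer array 1 lay 0.35 above the 7-array mean of C1qc on the log2 scale and -0.01 from that of C1qa. High gainer array 1 lay 0.44 above the mean of C1qa and -0.07 from that of C1qb. Low gainer array 4 lay below the mean of C1qa and C1qc, at -0.30 and -0.37, and at 0.10 for C1qb. Between arrays of 1 pool, the SD of log2 intensity for C1qb was 0.125 in high gainers and 0.132 in low gainers. For C1qc it was 0.194 and 0.359. The median over the 11169 probes was 0.216 and 0.328.

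Ctss, which encodes the lysosomal cysteine protease cathepsin S of microglia and macrophages, had an intensity of 13.2, 8.59, 9.41 and 11.8 on the high gainer arrays. The values on low gainer arrays 1, 3 and 4 were 8.06, 11.2 and 13.2. The ranges of the pools nearly coincided. The log2 difference of Ctss by limma was -0.01 ± 0.20 (SE), with an interval from -0.44 to 0.43 and an adjusted p of 0.998.

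B2m, the light chain of class I major histocompatibility molecules, had an intensity of 6.67, 8.31, 8.47 and 9.33 on the high gainer arrays. The values on low gainer arrays 1, 3 and 4 were 8.42, 11.9 and 8.14. The lowest value was that of high gainer array 1 and the highest that of low gainer array 3, with the other 5 arrays between 8.14 and 9.33. The log2 difference by limma was -0.20 ± 0.18 (SE), with an interval from -0.58 to 0.18 and an adjusted p of 0.879. Without low gainer array 3 it was -0.04, and without high gainer array 1 it was -0.10. B2m is transcribed in most nucleated cells and is not a marker of microglia alone.

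Aif1, which encodes the calcium-binding protein Iba1 used to stain microglia, had a value on 5 of the 7 arrays. On high gainer arrays 3 and 4 it was 0.239 and 0.384, and arrays 1 and 2 had no value. On low gainer arrays 1, 3 and 4 it was 0.222, 0.397 and 0.314. The measured values of both pools covered much the same range. A fit that leaves missing values out gave a log2 difference of -0.09 by limma, with an interval from -0.99 to 0.82 and an adjusted p of 0.993, resting on 2 high gainer and 3 low gainer arrays.

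**Figure D1:**
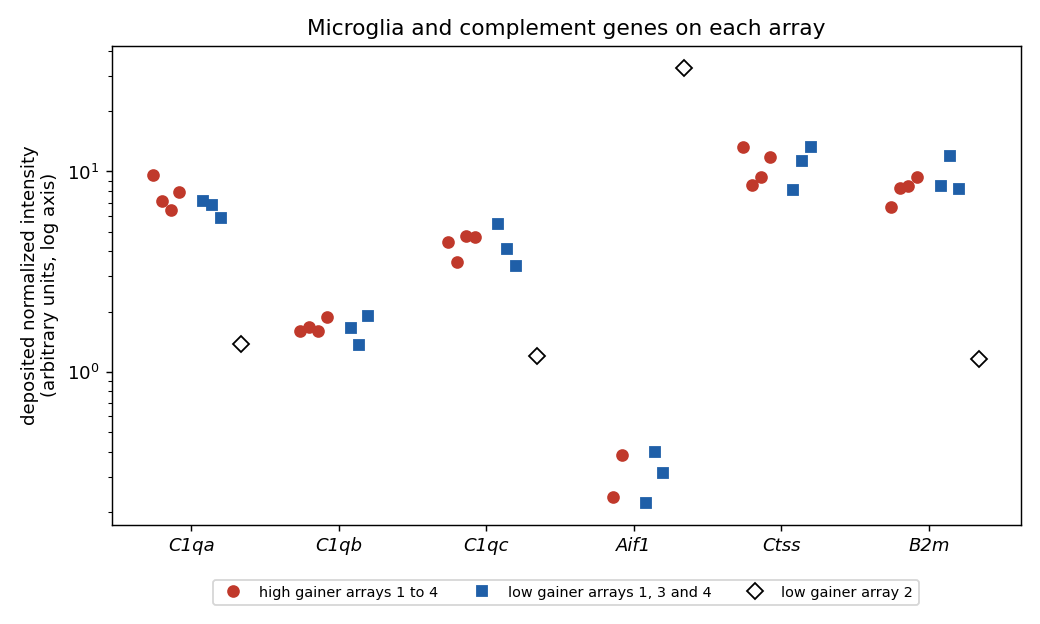
Deposited normalized intensity of each gene with a probe (log axis, arbitrary units), 1 point per array with a value; red circles are high gainer arrays 1 to 4, blue squares low gainer arrays 1, 3 and 4, and open diamonds low gainer array 2. Red and blue points overlap for C1qa, C1qb, C1qc, Aif1, Ctss and B2m, while the diamond of Aif1 stands at 33.0 and those of C1qa, C1qc and B2m at 1.37, 1.20 and 1.15; heights of different probes are not comparable.

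Of the 5 genes with a value on all 7 arrays, 0 were called at an adjusted p of 0.05 by limma, where 0.0269% of the 11169 probes were. Their unadjusted p was not under 0.05 in any case by limma or by the methods' t-test, against 6.48% of all probes by limma. None reached the cutoffs of the study's methods, a p of 0.01 before adjustment with a fold of 1.5, which by limma 1.03% of probes did. The study took its p from ANOVA on detected features, and its list of altered hypothalamus genes also holds smaller ratios. The pools overlapped for all 5, whereas 4.43% of probes had no overlap, 1.99% with high gainers above and 2.44% with them below. In fold, high over low gainers, the intervals ran from 0.913 to 1.54 for C1qa, 0.771 to 1.34 for C1qb and 0.765 to 1.38 for C1qc. They ran from 0.739 to 1.34 for Ctss and 0.670 to 1.14 for B2m. Differences between the pools of 2-fold thus lay outside the intervals of these 5 genes. The median log2 difference of the 5 genes was 0.03, and that of all probes was -0.0024.

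As listed on low gainer array 2, C1qa was at 18.9% of its mean on the other arrays, C1qc at 27.6% and B2m at 13.2%. C1qb and Ctss had no value there. Of probes naming 1 gene and measured on the other 7 arrays, 48.6% had one. Aif1 stood in the opposite direction, at 33.0, which was 106-fold its mean of 0.311 on the arrays with a value. Of 10011 probes with a value on this array and on at least 1 other, 3.92% stood at 50 times the mean or more, and 17.8% at 10 times. Among probes with a value on all 8 arrays, 7.81% stood at 10 times or more. With all 8 arrays the log2 difference of B2m turned to 0.39, that of C1qc was 0.32 and that of C1qa 0.66, with unadjusted p of 0.507, 0.392 and 0.154 by limma.

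Other transcripts of microglia were read from a list of 41 genes, of which 36 had a probe, 17 a value on all 7 arrays, 13 on some and 6 on none. Their median log2 difference was 0.01, with 9 above and 8 below 0, and 0 were called by limma. Markers of resident microglia had intervals that included 0. P2ry12, the purine receptor that guides microglial processes, was at 0.16 (interval -0.47 to 0.78), and Tmem119, a membrane protein of resident microglia, at 0.11 (-0.27 to 0.49). Fcgr3, an Fc receptor, was at 0.04 and Trem2, the receptor that signals through Tyrobp, at -0.13. Spi1, which encodes PU.1, had no value on the 7 arrays.

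Of these 17 genes, 2 had an unadjusted p under 0.05 by limma, Ly86 and Arhgdib, both lower in high gainers. Ly86, which encodes MD-1, the partner of a Toll-like receptor homologue, had an intensity of 0.199, 0.509, 0.355 and 0.426 on the high gainer arrays. The values on low gainer arrays 1, 3 and 4 were 0.523, 0.855 and 0.695, each above the 4 high gainer values. The log2 difference of Ly86 was -0.998, with an interval from -1.68 to -0.31, an unadjusted p of 0.00734 and an adjusted p of 0.750 by limma. It was the 1 of the 17 genes without overlap, and 2.44% of all probes were lower in high gainers without overlap. Ly86 also passed the cutoffs of the study's methods by limma, a p of 0.01 and a fold of 1.5, as did 1.03% of all probes. Arhgdib had a log2 difference of -0.70 with an adjusted p of 0.750 by limma, and its pools overlapped. Rgs10, a regulator of G protein signalling in microglia, was at -0.62 and Gpr34, a lysophosphatidylserine receptor, at 0.42, both with an adjusted p of at least 0.756 by limma.

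**Figure D2:**
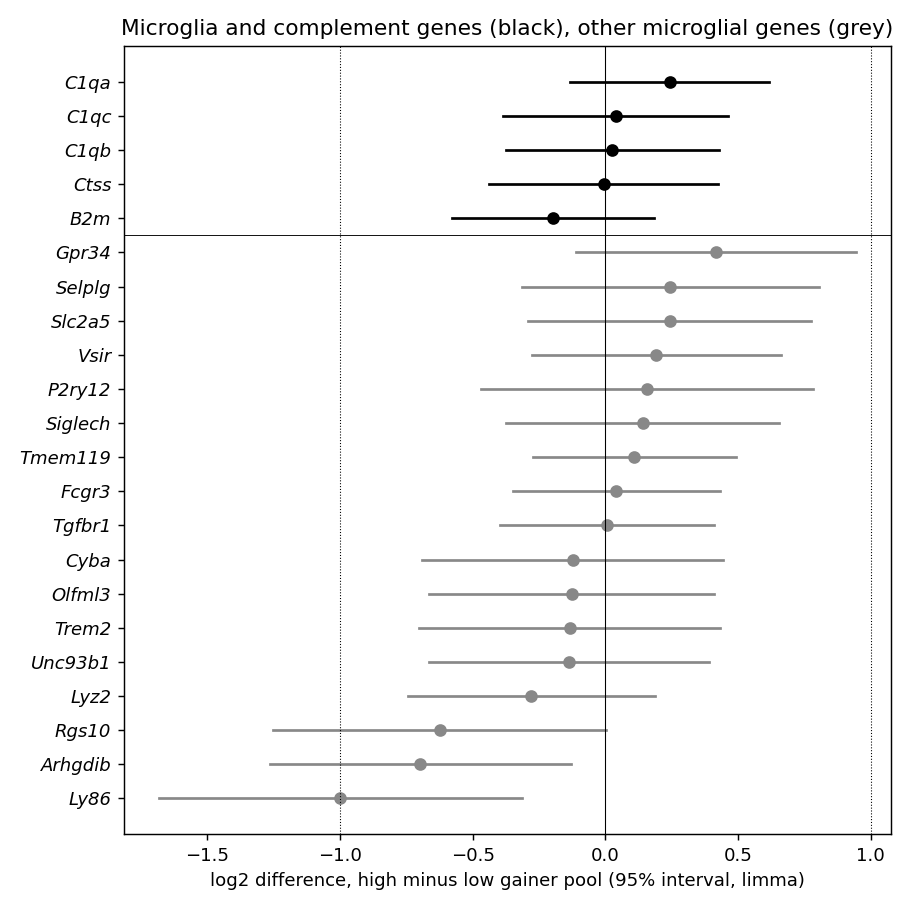
Log2 difference, high minus low gainer pool, with its 95% interval by limma, for the 5 genes with a value on 7 arrays (black) and for 17 other microglial genes (grey); dotted lines mark a 2-fold difference. The black intervals include 0 and stay inside the dotted lines, and the grey intervals of Ly86 and Arhgdib lie below 0 before adjustment for the number of probes.

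Genes that signal to microglia or restrain them did not pass the test either. Of 16 genes, 8 were measured on every one of the 7 arrays. They include receptors, among them Trem2, which is also counted with the 17 microglial genes above. Their median log2 difference was 0.10, and 0 were called by limma. Cx3cl1, the neuronal ligand of Cx3cr1, had an intensity of 2.19, 2.43, 2.22 and 1.55 on the high gainer arrays and of 2.01, 1.35 and 1.81 on the low gainer arrays. High gainer array 4 lay below low gainer arrays 1 and 4, so the pools overlapped, and the log2 difference was 0.27 with an interval from -0.18 to 0.72. Il34, a ligand of Csf1r, was at 0.08 and Cd47, the signal that restrains phagocytosis, at -0.12. Apoe, the lipid carrier, was at 0.36 and Csf2ra, a cytokine receptor subunit, at 0.20, and their intervals included 0.

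Past C1q, few complement genes had a value on every array compared. Of 43 genes of the cascade and its regulators, 31 had a probe, 8 had a value on all 7 arrays, 10 on some and 13 on none. By comparison, 43.9% of the 14411 probes naming 1 gene had a value on all 7 arrays and 21.4% on none. C1ra, the protease that C1q activates, had on the 7 arrays a value of 0.184 on high gainer array 4 and of 0.0810 on low gainer array 4, and read 1.22 on low gainer array 2. C2, C6, C9, C5ar1 and Itgb2 had none on the 7 arrays. For C3, C4b and C1s1, which also belong to the cascade, no value could be read here. The 8 measured genes had a median log2 difference of -0.18, and 0 were called by limma. Cd59a, which blocks the membrane attack complex, was at -0.49 (interval -0.99 to 0.02), and Mbl2, a mannose-binding lectin, at -0.65 (-1.41 to 0.12). Calr, a chaperone that also binds C1q, and Vtn, vitronectin, were each at 0.50, with intervals that included 0.

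**Figure D3:**
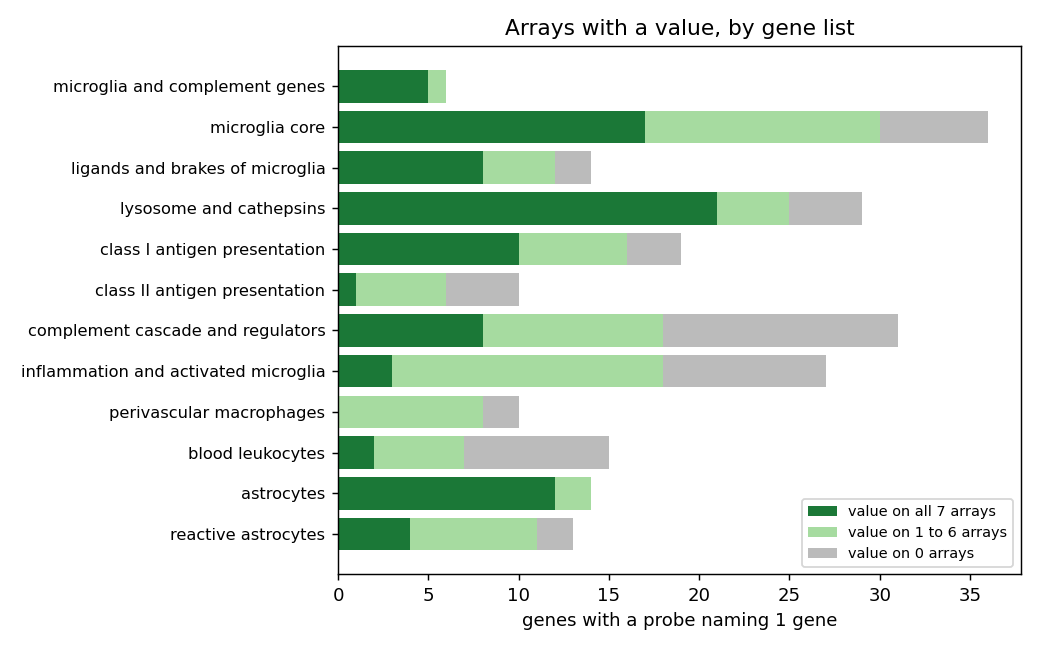
Number of genes with a probe naming 1 gene in each list, split by whether they had a value on all 7 arrays, on 1 to 6 or on 0 (high gainer arrays 1 to 4 and low gainer arrays 1, 3 and 4). Of 31 complement genes 8 had a value on 7 arrays and of 27 inflammation genes 3 did, against 12 of 14 astrocyte genes.

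Few inflammatory and activation transcripts had a value on all arrays of both pools. Of 38 listed genes, 27 had a probe, 3 had a value on all 7 arrays, 15 on some and 9 on none. Those with no value on the 7 arrays were Il1b, Il6, Ccl2, Ccl4, Ccl5, Arg1, Irak1, Gpnmb and Cst7. Of the 9, 6 had a value on low gainer array 2, as did 39.0% of all probes naming 1 gene and without a value on the 7 arrays. Tnf, the cytokine tumour necrosis factor, had 1 value on the 7 arrays, 0.167 on high gainer array 4, and 3.55 on low gainer array 2. The measured 3 were Axl, a receptor for dying cells, at a log2 difference of -0.10, Socs3, a brake on leptin and cytokine signalling, at -0.09, and Traf6, an adaptor of Toll-like receptors, at 0.05. A missing value has no stated cause in the sources used here. With missing values left out, Cd14, Cxcl10, Ccl6 and Rela could be fitted too, and their adjusted p by limma was at least 0.927.

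Lysosomal genes, the company of Ctss, were better covered, with 21 of 36 measured on all 7 arrays. Their median log2 difference was -0.07, with 8 above and 13 below 0, and 0 were called by limma. Among cathepsins, Ctsc was at -0.30, Ctsl at -0.26 and Ctsf at 0.34. Ctsc had 0.889 to 1.00 on the high gainer arrays and 1.09 to 1.16 on low gainer arrays 1, 3 and 4, without overlap, at an unadjusted p of 0.153 by limma. With Tpp1, a lysosomal peptidase, it was 1 of 2 among the 21 genes that were lower in high gainers without overlap, against 2.44% of all probes. Lamp1, a lysosomal membrane glycoprotein, had an intensity of 125 on high gainer array 1 and of 8.30 to 19.2 on the other 6 arrays compared. Its log2 difference was 0.94 (interval -0.43 to 2.31), and without high gainer array 1 it was 0.092.

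The partners of B2m in class I antigen presentation were fully measured for 10 of 27 genes. Their median log2 difference was -0.14, and 0 were called by limma. H2-K1, a class I heavy chain, had 1.81, 1.95, 1.43 and 1.81 on the high gainer arrays and 1.47, 2.27 and 2.15 on the low gainer arrays. Those ranges overlapped, with a log2 difference of -0.14 (interval -0.59 to 0.30). Heavy chains are near-identical in sequence, and a probe may read several of them. Canx, the chaperone calnexin that folds heavy chains among many other proteins, had 36.2 to 43.9 on high gainer arrays and 21.3 to 30.2 on low gainer arrays 1, 3 and 4. The log2 difference of Canx was 0.71 with an interval from 0.37 to 1.06. By limma the unadjusted p of Canx was 0.000551, which with its fold passed the cutoffs of the study's methods, as 1.03% of all probes did. Its adjusted p by limma was 0.750, or 0.0200 without low gainer array 1. Without that array 171 probes in all were called by limma, against 3 with it. Fcgrt, the neonatal Fc receptor and also a partner of B2m, was at -0.31. Of 11 class II genes, H2-Eb1 alone had a value on all 7 arrays, at a log2 difference of -0.20 (interval -0.86 to 0.46).

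Astrocyte genes, the other side of gliosis, were fully measured for 12 of 18. Their median log2 difference was 0.04, and 0 were called by limma. Sox9, a transcription factor of astrocytes, had 0.658, 0.587, 0.664 and 0.452 on the high gainer arrays and 0.366, 0.164 and 0.413 on the low gainer arrays. The value on low gainer array 3 lay below 0.186, the 10th percentile of all values. The pools did not overlap for Sox9, as for Canx and for 1.99% of all probes in that direction. Its log2 difference was 0.97 (interval 0.29 to 1.65), with an unadjusted p of 0.00847 and an adjusted p of 0.750 by limma. Sox9 thus passed the study methods' cutoffs of p and fold by limma, as did 1.03% of all probes. Slc1a2, a glutamate transporter, was at -0.61, Aldoc, an aldolase of astrocytes, at 0.25 and Gja1, connexin 43, at 0.54, with intervals that included 0. Of 19 genes of reactive astrocytes, 4 were measured, with a median of -0.21 and 0 called by limma. Vim, the intermediate filament vimentin, was at 0.00 (interval -0.38 to 0.38) and Cp, ceruloplasmin, at -0.64 (-1.30 to 0.02). Cp had 0.132 to 0.241 on the high gainer arrays and 0.245 to 0.289 on low gainer arrays 1, 3 and 4. It was thus lower in high gainers without overlap, as were 2.44% of all probes. The Cp values on high gainer arrays 1 and 2, 0.132 and 0.163, lay below 0.186, the 10th percentile of all values. Tnc, tenascin C, was at -0.41 and Sparc, a matrix protein, at 0.10. Gfap had no probe naming it alone.

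**Figure D4:**
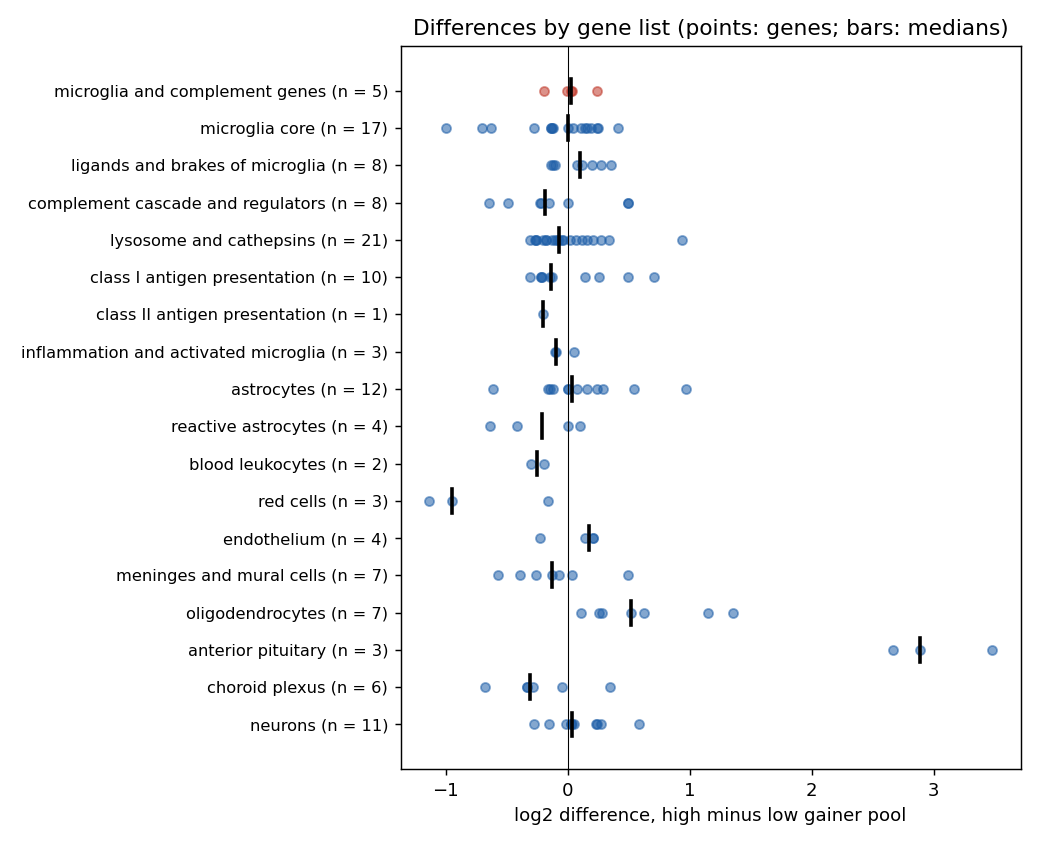
Log2 difference, high minus low gainer pool, of the genes of each list with a value on 7 arrays (points), with the median of the list (bar). The 5 microglia and complement genes lie between -0.20 and 0.24, and of the genes drawn only those of the anterior pituitary passed an adjusted p of 0.05 by limma.

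Markers of other cells were checked beside these results. Among 10 genes of perivascular macrophages with a probe, 0 had a value on all 7 arrays, and 2 of 15 blood leukocyte genes did. Their part in the C1q and Ctss signals was not tested. Summed over the 5 microglia and complement genes, intensity was 29.2 to 35.6 in the high gainer pool and 30.7 to 35.4 in the low gainer pool without its array 2. Summed over 3 red cell genes it ran from 8.94 to 14.8 against 18.4 to 37.2. Over 7 oligodendrocyte genes the sums were 57.3 to 90.8 against 17.8 to 57.2, and over 3 anterior pituitary genes 8.30 to 10.4 against 0.837 to 1.38. Those 3 pituitary genes were the 3 probes called by limma. Over 11 neuronal genes the sums overlapped, at 247 to 291 and 251 to 284. These sums weigh bright probes most. Mbp, of the oligodendrocyte list, alone had 42.1 to 66.7 against 9.68 to 36.1, and Hba-a1, of the red cell list, 8.11 to 13.9 against 17.0 to 35.8. Of the oligodendrocyte genes 2 of 7, and the 3 pituitary genes, were higher in high gainers without overlap, as were 1.99% of all probes. Of the 3 red cell genes 2 were lower without overlap, as were 2.44% of all probes.

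The genes most like these across the 7 arrays were sought among 6332 probes naming 1 gene. The mean z-score of the C1q chains was followed most closely by Epha8 (r = 0.971), Stim1 (0.969), Slc39a10 (0.954), Lnpk (0.940) and Dap3 (0.932). B2m was followed by Chchd1 (0.982), Ss18l2 (0.982), Gng13 (0.980), Sec61g (0.972) and Snrpd1 (0.967). The 7 points are arrays of 2 pools and share their RNA, and no test was made of these correlations. They were picked as the highest among 6332 probes. The C1q chains themselves did not share an order of arrays, so their mean is not a common pattern.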

How the data were processed

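Pooled hypothalamus RNA was measured on 8 Applied Biosystems mouse arrays, 1-colour and read by chemiluminescence (analyzer software 1.0.3). The deposited values are intensities on a linear scale, which the authors normalized across arrays by a quantile method; features below their limits of signal over noise or quality were not tested there, and the step that left cells empty is not stated there. Groups came from the sample titles. Probes with a value on all 7 arrays other than low gainer array 2 were put on the log2 scale, quantile-normalized again and compared with limma 3.58.1 in R 4.3.3 (lmFit, eBayes with trend, Benjamini-Hochberg over 11169 probes, threshold 0.05). Limma's intervals are at 95%. The platform annotation named 1 gene for 14411 probes, several for 247 and none for 18354; no probe in it carried the gene identifier or a RefSeq transcript of the 4 genes without a value. The sources used here give no genome build for the array. Motif windows are from RefSeq, GRCm38.p6, with positions counted backwards from the start site.

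The genes and the 18 further lists were chosen with earlier results of these data known. Of each list described, the genes named were up to 4 with the smallest p, direct partners of the members, and a few more chosen after their values were seen (P2ry12, Tmem119, Fcgr3, Spi1, Tpp1, Cd14, Cxcl10, Ccl6, Rela, and genes named for having no or few values). No value could be read for the partners Csf1, Cst3 and H2-D1. For a gene with several probes the probe with a value on most of the 7 arrays was taken, and of equals the brightest. The procedure was also run on simulated data, with noise drawn independently for each probe and no shift common to an array. Its outcome is not given here, and no statement above on the size of differences rests on it. Alternatives were median centring, cyclic loess, no further normalization, a brightness filter, a pseudocount, missing values kept, no trend, array weights, the replicate number as a block, all 8 arrays, the methods' t-test and leaving out each array. The number of arrays limits the precision, and no background signal per array was used.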

Additional observations from a re-analysis of the deposited data

Results flagged for a closer look

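Low gainer array 2 stood apart from the other 3 arrays of its pool for 3 of the genes, by a gap that is large for the range of 4 values on the log2 scale. The gap made up 0.881 of the range for C1qa, with an intensity of 1.37, and 0.836 for B2m, with 1.15, on the low side. For Aif1 it made up 0.884 of the range, with an intensity of 33.0, on the high side. In all, 9 sets of 4 arrays were examined, and chance gives such a gap in about 1 of 20 where no array is known to differ. Low gainer array 2 was known beforehand to differ over all probes. That rate therefore does not apply to it, and the gaps are no separate finding on these genes. The array was left out of the comparison of the pools for its low correlation with the others over all probes, and whether its values belong to the genes they are listed under is not known.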

How the results depend on the processing

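No member was called, and none had an unadjusted p under 0.05, in any of the alternatives that could include it (19 for C1qa, C1qc and B2m, 17 for C1qb and Ctss); the smallest was 0.126, for C1qa without low gainer array 1, by limma. C1qa kept its direction in all 19, with the log2 difference between 0.13 and 0.32 on 7 or fewer arrays and 0.66 on all 8. Ctss, at -0.01, changed sign with cyclic loess (0.0012), missing values kept (0.0012), array weights (0.0097) and the replicate block (0.082). B2m changed sign with all 8 arrays (0.39), with and without the brightness filter. Leaving out single arrays gave ranges across 0 for C1qb (-0.045 to 0.086), C1qc (-0.13 to 0.22) and Ctss (-0.21 to 0.18), and likewise for Socs3 (-0.34 to 0.092), Traf6 (-0.12 to 0.29), Sparc (-0.16 to 0.32) and Vim (-0.12 to 0.10). Vim was also below 0 with median centring (-0.029), cyclic loess (-0.013), no further normalization (-0.015), array weights (-0.091) and the replicate block (-0.073). With all 8 arrays, Cd59a was at 0.063 and Ctsl at 0.45, the latter also with the brightness filter. Causes were not tested.

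Of all probes, 3 were called by limma. The number was 1 with the brightness filter, 9 with the replicate block, 1 with all 8 arrays, 0 with these and the filter, 0 by the methods' t-test, and 2 to 171 when single arrays were left out, 171 being without low gainer array 1. At the study methods' cutoffs of p and fold 115 probes passed by limma. That number was 54 with the brightness filter, 266 with array weights, 176 with the replicate block and 3 with all 8 arrays. With all 8 arrays and the filter it was 0, by the methods' t-test 19, and without single arrays 23 to 669. Deviations of same-numbered arrays from their pool means correlated at an r of -0.20, 0.13 and -0.14 for numbers 1, 3 and 4. So few values show no pairing by number and cannot exclude one. Overlap of the pools was also found for the 5 genes on quantile-normalized values, an alternative added after the data were seen.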

Other observations

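Low gainer array 2 listed values for inflammatory genes that the other arrays did not. Of the 9 genes of the inflammation list with no value on the 7 other arrays, 6 had one there, among them Arg1 at 40.3, Il6 at 10.4, Ccl2 at 4.56 and Il1b at 0.852. Of all 3087 probes naming 1 gene and without a value on the 7 arrays, 39.0% had one on this array. Axl stood at 222 there and at 2.15 to 2.97 elsewhere, in the same direction as Aif1, while Apoe stood at 0.429 against 77.6 to 158. These values are from 1 array that hardly correlated with the other 7, and they enter no comparison. Whether they are levels of the genes they are listed under is not known.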
